A study of Homo sapiens with 6 samples.

Results

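The 10 genes described here belong to the Hippo pathway or are established targets of its effector YAP, and they were compared between PC3 cells with GCNT1 overexpression and control PC3 cells. They are WWC1, WWC2, WWC3, LATS1, LATS2, YAP1, WWTR1, CCN1, CCN2 and AMOTL2, which were taken by symbol from the 12703 genes of the count table, and all 10 were found. The genes were selected on their counts in these same 6 libraries, with the differences between the groups already known, so the values of the 10 genes are given as a description without a test. PC3 is a human prostate cancer line grown from a metastasis to bone. The samples were 3 PC3 lines stably transduced with lentiviral particles for GCNT1 and 3 lines transduced with negative-control particles, so that both groups carry a lentiviral insertion. The labels call the lines of a group biological replicates, and whether each came from its own transduction or from single clones is not given in the sources used here, so p-values measure the spread between these lines.

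GCNT1, a glycosyltransferase that builds branched O-glycans, had 9, 13 and 8 counts in the controls and 13, 16 and 35 counts in the overexpressing lines. Its log2 fold change was 0.98 ± 0.37 (SE, n = 3 each, edgeR Benjamini-Hochberg adjusted p = 0.0362), and it was 0.49 (edgeR adjusted p = 0.269) without the third overexpressing line, 0.91 (edgeR adjusted p = 0.0920) without the first control and 0.88 (edgeR adjusted p = 0.0944) without the third. Whether transcripts of the lentiviral GCNT1 copy were counted under this gene is not given in the sources used here, so these counts may not measure the level of overexpression. By its counts GCNT1 reached the minimum level of the table (1.01 CPM by library size in 3 libraries) in 1 control, and needed the overexpressing lines to be in it. This minimum favoured a rise, so the GCNT1 values are a description and their p-values are not read as a test. Library totals ran from 11392213 to 13825704 counts. The epithelial keratins KRT8 and KRT18 were at 222 and 253 CPM (counts scaled to library size with TMM factors) in controls and at 202 and 222 CPM with overexpression. KRT19 fell from 369 to 230 CPM (log2 fold change -0.68, edgeR adjusted p = 4.27e-07), and CDH1, which encodes E-cadherin, was at 3.59 ± 0.796 CPM in controls and 1.10 ± 0.168 CPM with overexpression (SD, n = 3). Of 16 marker genes listed for PC3 and other cell types, 10 were among the genes analysed here, and 1 was higher and 5 were lower past the thresholds used, 60.0% against 19.3% of all genes. The endothelial marker PECAM1 went from 1.77 to 4.43 CPM and the fibroblast marker COL3A1 from 139 to 36.2 CPM, and their part in the results was not tested. In RNA from a whole culture, a lower level in each cell and fewer cells expressing a gene cannot be told apart.

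The Hippo pathway is a kinase cascade that limits tissue growth. The kinases STK3 and STK4 activate LATS1 and LATS2 with the help of scaffolds such as the WWC proteins and NF2, and the LATS kinases phosphorylate YAP1 and its paralogue TAZ, encoded by WWTR1, which keeps them in the cytoplasm. When phosphorylation is low, YAP and TAZ enter the nucleus, bind the TEAD transcription factors and raise transcription of genes such as CCN1, CCN2, ANKRD1 and AMOTL2. Much of this control acts on the proteins, through phosphorylation and localisation, which RNA counts do not measure.

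The classical targets CCN1, CCN2 and AMOTL2 were more abundant with GCNT1 overexpression, YAP1 was less abundant, and WWC3 was counted at most 3 times in any control. Genes were called where the edgeR adjusted p was under 0.05 and the log2 fold change was over 0.58 in either direction. Past both thresholds were 5 of the 10 genes: WWC3, CCN1, CCN2 and AMOTL2 with higher and YAP1 with lower expression. Over all 12703 genes 19.3% were past both thresholds, 8.28% higher and 11.1% lower, or 1052 and 1405 genes, and scaling by library size alone gave 1283 higher and 1230 lower. Nothing is read from the count of the 10 genes against these shares because this comparison chose them. In 9 of the 10 genes the 3 overexpressing lines lay apart from the 3 controls, above them in 6 and below them in 3. Over all genes the groups lay apart in the same 2 ways in 30.9% (above) and 31.6% (below). The values just inside the fold threshold were those of YAP1 (-0.73) and AMOTL2 (0.99), and just outside it those of LATS1 (-0.53) and LATS2 (0.46).

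**Figure D1:**
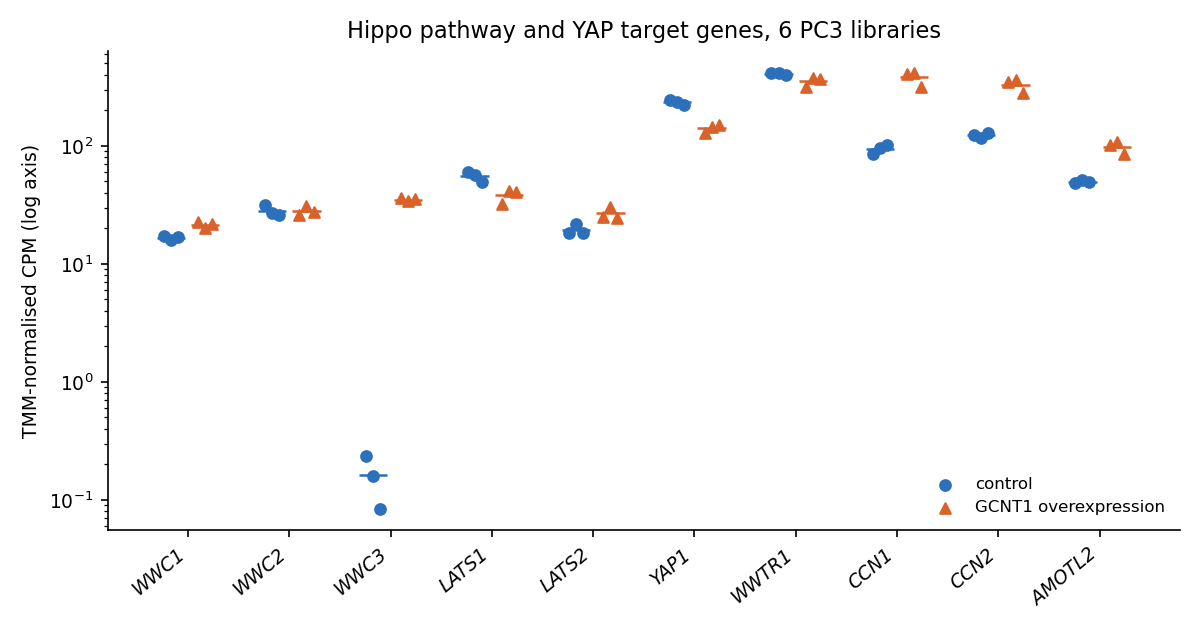
TMM-normalised CPM on a log axis for the 10 genes in each of the 6 libraries, with 3 control lines as circles, 3 GCNT1 overexpressing lines as triangles and the mean of each group as a horizontal line. WWC3 lies under 0.25 CPM in controls and between 34 and 36.0 CPM with overexpression, CCN1, CCN2 and AMOTL2 lie higher and YAP1 lower with overexpression, and the 2 groups overlap in WWC2 alone.

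CCN2 and AMOTL2 hold letters of the TEAD motif before their start sites, and 2 further target genes described below, ANKRD1 and NUAK2, do so too. For these 4 genes the 250 bases before the start are printed, in RefSeq's GRCh38.p14 and in the direction of the gene, with every GGAATG or its reverse complement CATTCC (TEAD) and every TGANTCA (AP-1, a factor that often binds near TEAD) in capitals. WWC3 is printed beside them because its level differed most.
CCN2, chr6:131951373-131951622, minus strand: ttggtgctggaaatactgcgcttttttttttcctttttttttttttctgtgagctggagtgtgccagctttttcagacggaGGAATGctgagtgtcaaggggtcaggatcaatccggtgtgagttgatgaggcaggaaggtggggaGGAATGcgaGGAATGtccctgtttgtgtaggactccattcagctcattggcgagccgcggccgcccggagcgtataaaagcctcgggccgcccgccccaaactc
AMOTL2, chr3:134374448-134374697, minus strand: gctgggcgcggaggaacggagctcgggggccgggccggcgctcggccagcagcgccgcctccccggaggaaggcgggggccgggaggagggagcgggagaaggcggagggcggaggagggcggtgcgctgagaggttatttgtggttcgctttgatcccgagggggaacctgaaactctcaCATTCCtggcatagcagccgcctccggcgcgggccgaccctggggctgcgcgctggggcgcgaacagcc
ANKRD1, chr10:90921088-90921337, minus strand: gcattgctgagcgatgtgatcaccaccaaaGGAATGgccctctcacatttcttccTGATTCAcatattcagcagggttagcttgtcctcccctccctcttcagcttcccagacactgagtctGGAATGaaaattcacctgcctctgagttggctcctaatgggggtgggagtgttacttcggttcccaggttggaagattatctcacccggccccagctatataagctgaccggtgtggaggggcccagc
NUAK2, chr1:205321746-205321995, minus strand: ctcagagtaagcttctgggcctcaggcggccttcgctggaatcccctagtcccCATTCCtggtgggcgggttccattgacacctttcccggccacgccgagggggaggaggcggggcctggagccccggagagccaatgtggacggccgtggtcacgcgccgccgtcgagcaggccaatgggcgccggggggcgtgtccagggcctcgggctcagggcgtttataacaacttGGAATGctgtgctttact
WWC3, chrX:10015004-10015253, plus strand: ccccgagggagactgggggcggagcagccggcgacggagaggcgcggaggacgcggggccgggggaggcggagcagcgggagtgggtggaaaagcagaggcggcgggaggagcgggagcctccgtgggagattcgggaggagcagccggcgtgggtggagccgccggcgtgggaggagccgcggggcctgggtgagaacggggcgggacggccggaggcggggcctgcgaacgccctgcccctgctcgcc
CCN2 had 3 TEAD matches, at -169, -104 and -95 from the start (first base of the match, with -1 the base before the start). AMOTL2 had 1 at -69 in its second window and no match in its first. ANKRD1 had 2 TEAD matches, at -220 and -128, and an AP-1 match at -195, and NUAK2 had 2 TEAD matches, at -197 and -18. The WWC3 window of 300 bases had a GC content of 78.7% and no match to either motif. In all, 9 of the 10 genes had a window in the RefSeq table (CCN1 had none), and 5 of the 12 windows of these 9 genes held a TEAD match, 1 each of WWC2, LATS2, YAP1, CCN2 and AMOTL2. Of all 35116 windows of this length 14% held a TEAD match and 7.70% an AP-1 match, and of the 14985 windows of the analysed genes 11.5% and 5.30% did. No TEAD match overlapped an AP-1 match in these windows. A match to 6 letters is a description of the window and not evidence of binding.

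CCN1 and CCN2 encode secreted matricellular proteins that bind integrins, and both are standard readouts of YAP activity. CCN1 (chromosome 1, 85580761 to 85583950, hg38) was at 85.8, 96.5 and 102 CPM in the controls and at 410, 418 and 314 CPM in the overexpressing lines. The lowest overexpressing line was more than 3 times the highest control, and the groups did not overlap. The means were 94.7 ± 8.13 and 381 ± 58.1 CPM (SD, n = 3), 4.02-fold higher with a log2 fold change of 2.01 ± 0.10 (SE). Among all genes, this log2 fold change ranked 111 from the highest.

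CCN2 (chromosome 6, 131948176 to 131951372), whose promoter with 3 TEAD matches is printed above, was at 123, 117 and 129 CPM in the controls and at 346, 364 and 279 CPM with overexpression. The means were 123 ± 5.92 and 330 ± 45.3 CPM (SD, n = 3), 2.67-fold higher (log2 fold change 1.42 ± 0.08, SE). AMOTL2 (chromosome 3, 134355345 to 134375417), an angiomotin family scaffold that holds YAP outside the nucleus and is itself induced by YAP, was at 48.0, 50.9 and 49.1 CPM in the controls and at 102, 107 and 85.3 CPM with overexpression. It was 1.99-fold higher (log2 fold change 0.99 ± 0.08, SE). In CCN1, CCN2 and AMOTL2 alike, the second overexpressing line was the highest and the third the lowest of all 3. The spread was wider with overexpression, with a coefficient of variation of 15.3%, 13.7% and 11.6% against 8.58%, 4.79% and 2.98% in controls.

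YAP1 (chromosome 11, 102110447 to 102233424) was at 247, 237 and 222 CPM in the controls and at 129, 145 and 151 CPM in the overexpressing lines. All 3 overexpressing lines lay under the controls. The mean went from 236 ± 12.6 to 142 ± 11.5 CPM (SD, n = 3), 0.602 of the control level with a log2 fold change of -0.73 ± 0.06 (SE). WWTR1 (chromosome 3, 149517235 to 149724788), which encodes TAZ, was at 418, 417 and 395 CPM in the controls and at 317, 378 and 369 CPM with overexpression. It also lay under the controls in all 3 lines, by much less (log2 fold change -0.21 ± 0.06, SE). The first overexpressing line was the lowest of its group in YAP1, WWTR1 and LATS1.

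YAP1 was lower, and CCN1, CCN2 and AMOTL2 were higher, in each overexpressing line than in each control, differences on which these genes were selected. Per kilobase of exon, where genes can be compared with each other, YAP1 and WWTR1 together gave 86.5 ± 3.47 CPM in controls and 64.9 ± 5.72 CPM with overexpression (SD, n = 3). YAP1 made up 43.2% ± 0.668 of that sum in controls and 34.6% ± 0.783 with overexpression.

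The LATS kinases, which inactivate YAP and TAZ, went opposite ways. LATS1 (chromosome 6, 149658153 to 149718101) was at 59.9, 56.9 and 49.0 CPM in the controls and at 32.3, 41.6 and 40.8 CPM with overexpression (log2 fold change -0.53 ± 0.10, SE). LATS2 (chromosome 13, 20973036 to 21061586), itself a target of YAP, was at 18.4, 21.7 and 18.3 CPM in the controls and at 25.1, 30.5 and 24.7 CPM with overexpression (log2 fold change 0.46 ± 0.10, SE). The groups did not overlap in either gene, and neither was past the fold threshold. Summed per kilobase of exon, both kinases gave 9.97 ± 0.828 CPM in controls and 9.27 ± 1.04 CPM with overexpression (SD, n = 3), a difference within the spread of the lines. The share of LATS1 in that sum was 65.2% ± 2.70 in controls and 48.5% ± 3.20 with overexpression, or 51.8% by the longest transcript.

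The 3 WWC genes encode scaffolds with WW domains, of which WWC1 (KIBRA) is the best studied, that bring the LATS kinases to their activators. WWC3 (chromosome X, 10015254 to 10144474) was counted 3, 2 and 1 times in the controls and 417, 467 and 497 times with overexpression. Every control was at or under the floor of 3 counts, and the overexpressing lines were at 36.0, 34 and 35.2 CPM, closely grouped with a coefficient of variation of 2.92%. Against that floor, taken per control library, WWC3 was 144-fold higher. The floor equals the highest control count and is no upper limit on the control level, so counting error is not covered. Every gene in the table had at least 1.01 CPM by library size in its 3 highest libraries, so WWC3, at 0.0825 to 0.235 CPM in controls, entered the table through the overexpressing lines and had to differ. WWC3 was the 1 gene of the 10 for which this was so.

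WWC1 (chromosome 5, 168291645 to 168472303) was at 17.2, 16.0 and 16.9 CPM in the controls and at 22.5, 20.2 and 21.6 CPM with overexpression, with groups that did not overlap (log2 fold change 0.36 ± 0.08, SE). WWC2 (chromosome 4, 183099257 to 183320777) was at 31.5, 27.1 and 26 CPM in the controls and at 25.9, 31.2 and 27.6 CPM with overexpression. Its groups overlapped and its log2 fold change was 0.00 ± 0.09 (SE). Per kilobase of exon, the 3 genes summed to 4.50 ± 0.340 CPM in controls and 9.68 ± 0.0246 CPM with overexpression (SD, n = 3). WWC3 gave 0.475% ± 0.197 of the family in controls and 48.9% ± 1.5 with overexpression, and the share of WWC2, the most abundant of the family in controls, went from 62.6% ± 1.89 to 29.2% ± 2.72.

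**Figure D2:**
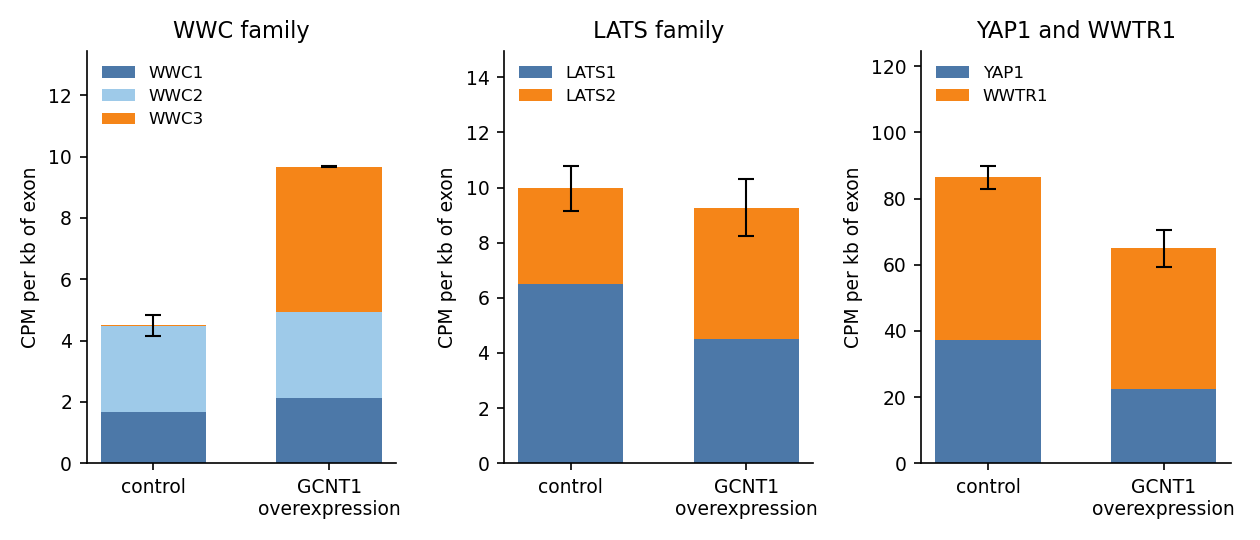
Stacked bars of mean CPM per kilobase of exon for the WWC, LATS and YAP1 and WWTR1 genes in controls and GCNT1 overexpressing lines (n = 3 each), with error bars for the SD of the sum. The WWC sum goes from 4.50 to 9.68 CPM with WWC3 as most of the added part, the LATS sum stays between 9.27 and 9.97 CPM with a smaller share of LATS1, and the YAP1 and WWTR1 sum goes from 86.5 to 64.9 CPM.

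Ordered by level per kilobase of exon, the controls ran from CCN2 (52.8 ± 2.53 CPM, SD, n = 3) over WWTR1 (49.1 ± 1.54), YAP1 (37.3 ± 2.00), CCN1 (25.6 ± 2.20), AMOTL2 (7.62 ± 0.227), LATS1 (6.51 ± 0.665), LATS2 (3.46 ± 0.347), WWC2 (2.82 ± 0.291) and WWC1 (1.66 ± 0.0649) to WWC3 (0.0217 ± 0.0104). With overexpression CCN2 (141 ± 19.4 CPM, SD, n = 3) and CCN1 (103 ± 15.7) stood above WWTR1 (42.5 ± 3.98) and YAP1 (22.5 ± 1.83). LATS2 (4.77 ± 0.577), WWC3 (4.73 ± 0.138) and LATS1 (4.50 ± 0.606) overlapped in their ranges with overexpression and had no order there. The place of WWTR1 rests on the length used: per kilobase of its longest transcript WWTR1 was at 81.4 CPM in controls and CCN2 at 52.8 CPM.

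The regions around YAP1, LATS1 and CCN2 were lower with overexpression, and how common such medians are over the genome was not tested. The median log2 fold change of the 50 nearest analysed genes was -0.30 around YAP1, -0.29 around LATS1 and -0.41 around CCN2, and between -0.21 and 0.18 around the other 7 genes. Relative to these medians the log2 fold change was -0.43 for YAP1, -0.24 for LATS1 and 1.83 for CCN2. It was 0.57 for WWC1 and -0.38 for WWTR1, both larger in size than the plain values. It kept its direction in all 9 genes whose groups did not overlap. The analysed genes next to LATS1, KATNA1 and NUP43, had log2 fold changes of -0.53 and -0.40 beside -0.53 for LATS1 itself. Those next to LATS2, XPO4 and SAP18, had 0.42 and 0.28 beside 0.46 for LATS2. The analysed genes next to WWC3 on either side, TBL1X and CLCN4, had log2 fold changes of 0.62 and 0.78, while the median around it was -0.06. Beside YAP1 (-0.73) CFAP300 had -1.72 and BIRC3 1.08, and beside CCN2 (1.42) ENPP1 had -0.48 and MOXD1 -1.43. Beside CCN1 (2.01) DDAH1 had 0.11 and ZNHIT6 -0.07, and beside AMOTL2 (0.99) RYK had -0.04 and ANAPC13 0.24. Beside WWC1 (0.36) MAT2B had -0.09 and RARS1 -0.14, beside WWC2 (0.00) DCTD had 0.29 and CDKN2AIP 0.20, and beside WWTR1 (-0.21) TM4SF1 had -0.05 and COMMD2 -0.08. Copy number was not measured, and its part in these values was not tested.

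**Figure D3:**
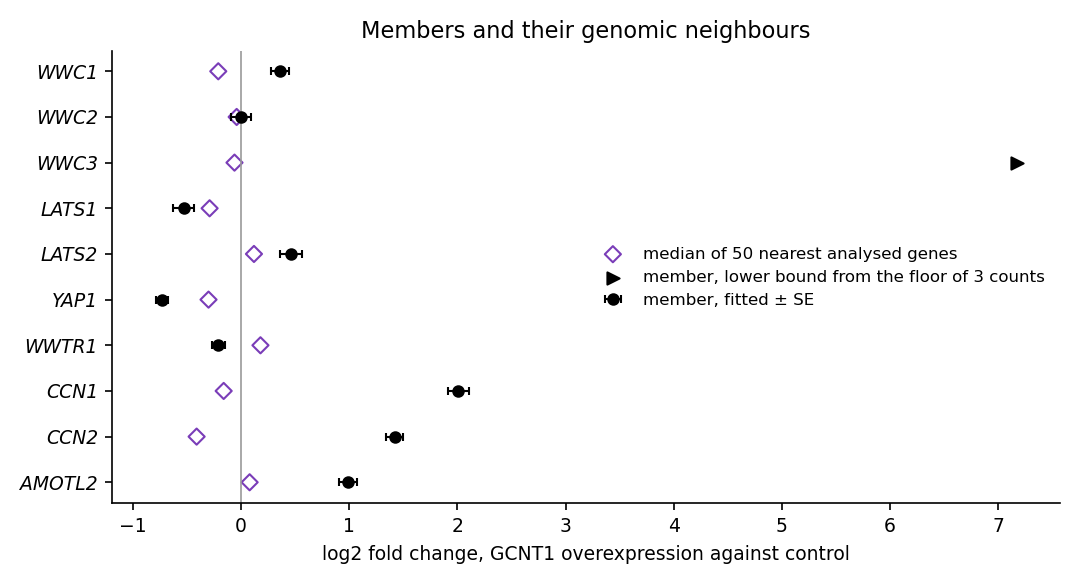
Log2 fold change of GCNT1 overexpression against control for each of the 10 genes (filled points with SE, and for WWC3 an arrowhead at 7.17, its value against the floor of 3 counts) and the median over the 50 nearest analysed genes (open diamonds). The medians lie between -0.41 and 0.18, and CCN1, CCN2, AMOTL2 and WWC3 stand more than 0.9 above theirs.

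The genes whose pattern over the 6 libraries was most like that of WWC3 were FLT1, EPB41L3, ZNF518B, SFTA1P and MBNL3, with a Euclidean distance of 1.77 to 2.09 between log2 CPM values centred on the mean of each gene. FLT1, which encodes a VEGF receptor, had 31, 36 and 30 counts in the control lines and 1382, 1723 and 1679 counts in the overexpressing lines. MBNL3, a splicing regulator, had 2, 1 and 0 counts in the control lines against 83, 112 and 114 in the others.

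The other genes of the pathway were taken from 6 lists by role, written with earlier results of these data known, and 82 of the 91 listed genes were among those analysed here. Of these 82 genes 5 rose and 7 fell past both thresholds in edgeR, 14.6% against 19.3% of all genes, and their median log2 fold change was -0.11 against 0.00 over all genes. The 2 largest log2 fold changes among them were those of the targets ANKRD1 and NUAK2, both of which entered the table through the overexpressing lines.

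Among 17 target genes of a pan-cancer YAP and TAZ signature that are not among the 10 genes above, 3 rose (ANKRD1, NUAK2 and CCDC80), 2 fell (IGFBP3 and NT5E) and 12 did not pass, with a median log2 fold change of -0.09. The share called was 29.4%, with ANKRD1 and NUAK2 counted, against 19.3% of all genes (8.28% higher and 11.1% lower). ANKRD1, an ankyrin repeat protein and a standard YAP target, had 6, 5 and 2 counts in the control lines and 31, 38 and 46 counts in the overexpressing lines. Its log2 fold change was 3.01 ± 0.31 (SE). As with WWC3, ANKRD1 lay under the minimum of the table in all 3 controls (0.165 to 0.470 CPM by library size), entered it through the overexpressing lines and had to be higher. NUAK2, at 0.742 to 1.18 CPM in controls, reached that minimum in 1 control and also needed the overexpressing lines to enter the table. The values of both genes are therefore a description without a test. Without them 1 target rose, CCDC80, and 2 fell, so nothing is read from the 29.4% against the share of all genes.

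NUAK2, an AMPK-related kinase that acts on actin and myosin, had 11, 15 and 9 counts in the control lines against 53, 47 and 44 in the overexpressing lines (log2 fold change 1.94 ± 0.25, SE, a description without a test as for ANKRD1). CCDC80, a secreted matrix protein, rose from 22.6 ± 0.304 to 41.6 ± 1.74 CPM (SD, n = 3, log2 fold change 0.88, edgeR adjusted p = 2.11e-07). The windows of ANKRD1 and NUAK2 with 2 TEAD matches each are printed above.

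IGFBP3, a secreted binding protein of insulin-like growth factors, fell from 305 ± 9.30 to 115 ± 11.4 CPM (SD, n = 3, log2 fold change -1.41, edgeR adjusted p = 1.24e-09). NT5E, the ectonucleotidase CD73, fell from 199 ± 6.49 to 100 ± 3.40 CPM (SD, n = 3, log2 fold change -0.99, edgeR adjusted p = 4.07e-09). AXL, a receptor tyrosine kinase, was at 425 ± 29.3 and 459 ± 31.4 CPM (SD, n = 3, edgeR adjusted p = 0.136). PTPN14, a phosphatase that binds YAP, was at 94.1 ± 11.3 and 85.0 ± 13.0 CPM (SD, n = 3, edgeR adjusted p = 0.256). On the edgeR adjusted p alone, 5 of the 17 genes had a positive and 5 a negative change, 29.4% each way, beside 28.3% and 29.3% of all genes. The 5 with a positive change include ANKRD1 and NUAK2, which needed the overexpressing lines to enter the table, so this balance is not read as a result. Windows were in the RefSeq table for 12 of the 17 genes, and 5 of them held a TEAD match: ANKRD1, NUAK2, AXL, PTPN14 and TGFB2. Those of CCDC80, IGFBP3 and NT5E held neither motif.

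Of 14 genes of the core kinase cassette, the kinases and adaptors that activate LATS1 and LATS2, 1 fell and 13 did not pass, 7.14% called against 19.3% of all genes, of which 8.28% were higher and 11.1% lower. The gene that fell was MAP4K3, a kinase upstream of LATS (76.3 ± 3.77 to 45.3 ± 3.21 CPM, SD, n = 3, log2 fold change -0.75, edgeR adjusted p = 7.98e-07). None of the 14 was called higher by edgeR, limma-voom or DESeq2. At an unadjusted p under 0.05 in edgeR 1 had a positive and 5 a negative change, against 30.7% and 31.5% of all genes. STK3 had a log2 fold change of -0.49 ± 0.09 (SE, edgeR adjusted p = 0.000648) and NF2, the scaffold merlin, one of -0.25 ± 0.06 (SE, edgeR adjusted p = 0.00163), both under the fold threshold. STK4 (-0.07 ± 0.06), SAV1 (-0.10 ± 0.06), MOB1A (-0.04 ± 0.06) and MOB1B (-0.01 ± 0.08, all log2 fold change and SE) had edgeR adjusted p values from 0.171 to 0.930.

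Of 25 upstream scaffold and polarity genes, 2 rose, 2 fell and 21 did not pass, 16.0% called and thus near the 19.3% of all genes. RASSF2, a RASSF family protein that binds the STK3 and STK4 kinases, fell from 36.8 ± 0.925 to 12 ± 1.55 CPM (SD, n = 3, log2 fold change -1.61, edgeR adjusted p = 8.54e-09), and its relative RASSF5 rose from 17.3 ± 1.5 to 27.2 ± 2.26 CPM (SD, n = 3, log2 fold change 0.65, edgeR adjusted p = 4.41e-05). FAT4, a giant cadherin, rose with a log2 fold change of 0.71 (edgeR adjusted p = 0.00171). AMOT, the founding angiomotin, fell, with a log2 fold change of -0.59 (edgeR adjusted p = 3.10e-05), which was -0.54 without the second control, -0.56 without the third overexpressing line and -0.53 with library size in place of TMM, all short of the fold threshold. Its paralogue AMOTL1 had a log2 fold change of -0.07 (edgeR adjusted p = 0.387), against 0.99 for AMOTL2. FRMD6, a scaffold related to NF2, had one of -0.38 (edgeR adjusted p = 0.000120).

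In the STRIPAK complex, a phosphatase assembly that removes activating phosphates from STK3 and STK4, 1 of 13 genes fell and 12 did not pass, 7.69% against the 11.1% of all genes called lower. STRN, a scaffold subunit, fell from 64.7 ± 5.34 to 34.2 ± 5.43 CPM (SD, n = 3, log2 fold change -0.91, edgeR adjusted p = 4.86e-06). Of 8 genes for the degradation and cytoplasmic retention of YAP and TAZ, 1 fell (12.5%), the 14-3-3 gene YWHAQ (log2 fold change -0.61, edgeR adjusted p = 5.68e-08), and with library size in place of TMM its log2 fold change was -0.55, short of the threshold. No gene of these 2 lists was called higher by edgeR, limma-voom or DESeq2, and at an unadjusted p under 0.05 in edgeR 1 STRIPAK gene and 0 of the 8 others had a positive change, while 5 STRIPAK genes and 7 of the 8 others had a negative one. Over all genes 8.28% were called higher, and 30.7% had a positive and 31.5% a negative change at that unadjusted p. On the edgeR adjusted p alone 6 of the 8 degradation and retention genes had a negative change, against 29.3% of all genes.

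Of 6 TEAD and VGLL genes, the DNA-binding partners of YAP and their competitors, 0 were called by edgeR, limma-voom or DESeq2, and at an unadjusted p under 0.05 in edgeR 2 had a positive and 1 a negative change. Over all genes 19.3% were called, and 30.7% and 31.5% had a positive or a negative change at that unadjusted p, so that nothing particular to these 6 genes is read from their counts. TEAD1 was at 245 ± 23.5 CPM in controls and 208 ± 24.9 CPM with overexpression (SD, n = 3, log2 fold change -0.23, edgeR adjusted p = 0.0282). The log2 fold change was 0.16 for TEAD2 (edgeR adjusted p = 0.0447), 0.16 for TEAD3 (edgeR adjusted p = 0.106), 0.37 for TEAD4 (edgeR adjusted p = 0.0148) and 0.10 for VGLL4 (edgeR adjusted p = 0.205).

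**Figure D4:**
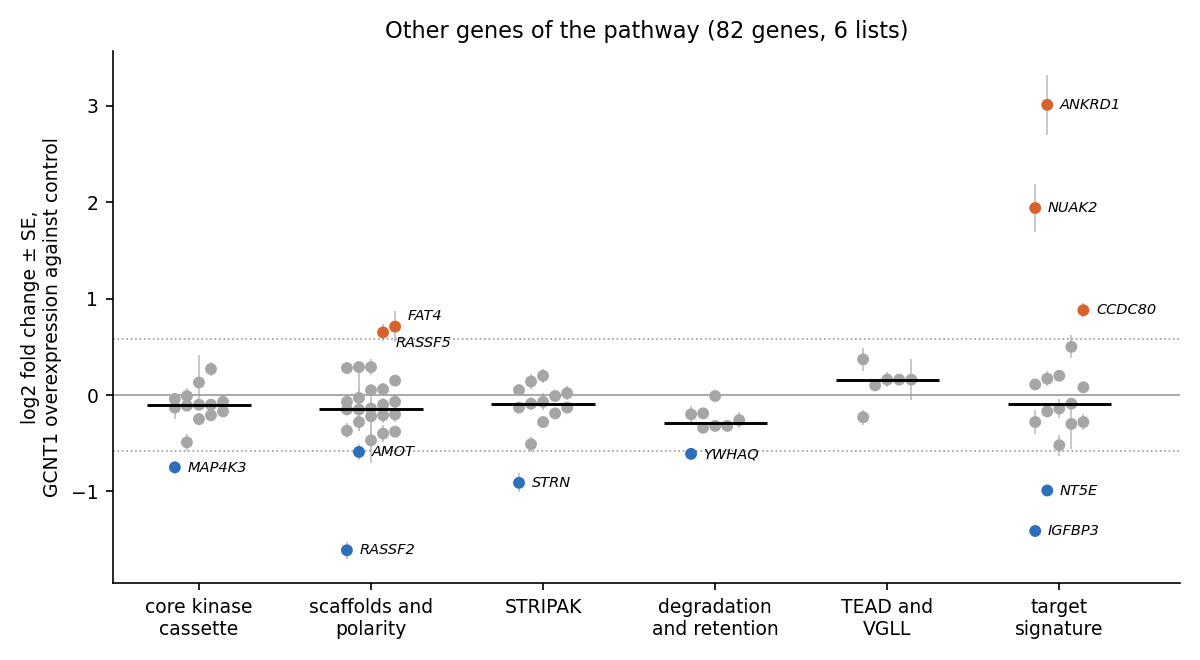
Log2 fold change with SE of GCNT1 overexpression against control for 82 further pathway genes in 6 lists (PTPN14 stands in 2 of them), with called genes in orange (higher) or blue (lower) and named, the list median as a black line and the fold threshold of 0.58 as dotted lines. Most genes lie between the dotted lines, and the largest differences are ANKRD1 (3.01), NUAK2 (1.94), RASSF2 (-1.61) and IGFBP3 (-1.41).

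Reads were from stranded libraries, but the counting setting is not given in the sources used here, so reads of antisense genes could have been counted. GENCODE places genes on the opposite strand over WWC2, WWC3, LATS1, LATS2, YAP1, WWTR1 and CCN2 (and, among the other pathway genes named, over STK3, STK4, SAV1, MAP4K3, FRMD6, AMOTL1, RASSF5, TEAD1, TEAD2, VGLL4, AXL and TGFB2), and none over WWC1, CCN1 or AMOTL2.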

How the data were processed

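RNA from 3 control and 3 GCNT1 overexpressing PC3 lines gave 1 stranded mRNA library each. The authors used Cutadapt for trimming, HISAT2 for alignment against hg38 and featureCounts for counting, and deposited raw read counts per Entrez gene without normalisation. The annotation and strand setting are not given in the sources used here. Of 12703 identifiers, 12661 were matched to a RefSeq symbol.

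The 10 genes, the pathway lists and the thresholds were chosen with earlier results of these data known. The quasi-likelihood test of edgeR 4.0.16 (R 4.3.3) compared the 2 groups after filterByExpr and TMM, with Benjamini-Hochberg adjustment over 12703 genes. Calls needed an adjusted p under 0.05 and a log2 fold change over 0.58 in either direction. SEs were derived from the F statistic. The fits were tested on simulated data. Alternatives were limma-voom (limma 3.58.1), DESeq2 1.42.0, scaling by RLE or by library size alone, omitting the filter, requiring 10 counts in every library, the replicate block and each library left out. The filter kept all 12703 genes, so omitting it could not change a value. Libraries of a group differed beyond sampling noise (chi-square per degree of freedom 1.65 to 5.61).

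Named genes were the 10 genes, at most 5 called genes in each direction per list, core components fixed by name (STK3, STK4, SAV1, MOB1A, MOB1B, NF2, the TEAD genes, VGLL4, AMOT, AMOTL1, PTPN14, FRMD6, ANKRD1 and AXL), GCNT1, and the 5 genes most like WWC3. Cell markers came from a list of their own. The genes adjacent to the 10 genes, TGFB2 (for its TEAD match) and SRF with its group were named outside this rule, after their values were seen. Exon lengths and overlaps were from GENCODE 44 on hg38, and levels per kilobase used the union of exons.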

Additional observations from a re-analysis of the deposited data

How the results depend on the processing

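Leaving out each library gave 2409 to 2511 called genes, and the other alternatives 1980 to 2513. Without the replicate block 2457 genes were called and with it 2423. The replicate block changed no call of a pathway gene named here. The deviations of same-numbered libraries correlated between -0.273 and -0.0024 across genes, and no control correlated best with its own number, so the numbers were not taken as a pairing. The log2 fold changes of the 9 genes above the floor kept their direction except for WWC2, which ran from -0.07 to 0.10. They ran from -0.78 to -0.67 for YAP1, 1.94 to 2.13 for CCN1, 1.35 to 1.53 for CCN2 and 0.92 to 1.08 for AMOTL2. Values relative to the 50 nearest analysed genes are not in these ranges and lay outside them, at -0.43, 2.17, 1.83 and 0.91 in the same order. For GCNT1 the DESeq2 adjusted p was 0.0821, which like its edgeR p-values is not read as a test. With 10 counts in every library the called targets that were higher went from 3 to 1 and the called pathway genes that were higher from 5 to 3, because that filter leaves out ANKRD1 and NUAK2, and WWC3 and GCNT1 had no value there either. With library size alone the called scaffold genes that were lower went from 2 to 1 and the called degradation and retention genes from 1 to 0, and leaving out 1 library gave 1 to 3 such scaffold genes, with 1 without the second control or the third overexpressing line. Per kilobase of the longest transcript the control and overexpression shares were 42.3% and 26.7% for WWC1, 57.3% and 28.3% for WWC2, 0.412% and 44.9% for WWC3, 68.1% and 51.8% for LATS1, and 34.9% and 27.2% for YAP1. LATS1 was thus the larger LATS share with overexpression by this length and the smaller by the union of exons. With 3 lines in each group, a floor of 3 counts was 0.213 to 0.259 CPM.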

Other observations

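A further pair of gene groups was chosen after the data were seen: the rest of the CCN family, and a group made of the serum response factor SRF, its coactivators and actin cytoskeleton genes. Of the other CCN family genes CCN3 was the 1 analysed here, and it fell from 50.9 ± 1.59 to 18.7 ± 1.95 CPM (SD, n = 3, log2 fold change -1.44, edgeR Benjamini-Hochberg adjusted p = 7.25e-09), opposite to CCN1 and CCN2.

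Of 18 genes of the SRF group, which are actin cytoskeleton genes together with SRF and its coactivators MRTFA and MRTFB, 1 rose, 5 fell and 12 did not pass, against 8.28% higher and 11.1% lower over all genes. The gene that rose was MYL9, a myosin light chain, from 8.17 ± 1.39 to 30.8 ± 3.56 CPM (SD, n = 3, edgeR adjusted p = 2.80e-08). CNN2 (calponin 2) fell from 47.1 ± 4.67 to 14.7 ± 0.946 CPM (SD, n = 3, edgeR adjusted p = 5.33e-09), and ACTG1, ZYX, MYH9 and TAGLN fell by 0.81, 0.83, 0.65 and 0.94 on the log2 scale. GENCODE places genes on the opposite strand over CCN3, ACTG1, TAGLN, MYL9, MYH9 and ZYX. ACTG1 shares long stretches with ACTB, so its counts are uncertain. SRF itself was at 72.7 ± 2.99 and 78 ± 3.14 CPM (SD, n = 3, edgeR adjusted p = 0.153).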
